A study of Mus musculus with 9 samples.

Results

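The MHC class II genes described here were 7 of the 32286 rows of the feature table, found by symbol. They comprised the α and β chain genes H2-Aa, H2-Ab1 and H2-Eb1, the invariant chain gene Cd74, the peptide-exchange genes H2-DMa and H2-DMb1, and Ciita. All 7 were present in the table and held unique molecular identifiers (UMIs, 1 per captured transcript) in every cell type examined. They were followed, library by library, in 4 kinds of cell from the same tumours: tumour cells, endothelial cells, macrophages and dendritic cells.

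The libraries came from whole cell suspensions of 9 primary tumours, grown after injection of 168FARN cells, a mouse mammary tumour line, into the mammary fat pads of female BALB/c mice, and were made with a droplet-based 5′ single-cell kit. Each of 3 groups held 3 tumours: wild-type (WT), Kmt2c knockout (Kmt2c KO) and Kmt2d knockout (Kmt2d KO). Kmt2c and Kmt2d encode histone methyltransferases that mark enhancers. All injected cells carried an H2B–mCherry reporter, read in the table as H2BMc, and only they were edited, so endothelial cells, macrophages and dendritic cells were host cells with intact genes in every group. The knockouts were sorted populations made with pooled guides against exon 1. No independent 168FARN knockout lines are described, so that the tumours of a group replicate the mouse and not the knockout. The deposited table names the groups of its libraries by a letter, and WT was the letter left after those of the 2 knockouts. The numbers 1 to 3 only name libraries.

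MHC class II molecules present peptides to CD4+ T cells. An α and a β chain pair in the endoplasmic reticulum around the invariant chain, which blocks the groove and directs the complex to endosomes, where H2-DM exchanges the remaining fragment for antigenic peptide. Dendritic cells, macrophages and B cells make these molecules constitutively. Endothelial cells, and some epithelial and tumour cells, make them on exposure to interferon gamma, through factors such as IRF1, which switch on Ciita. CIITA does not bind DNA itself but is recruited by the RFX, CREB and NF-Y factors that sit on a conserved pair of promoter elements, the X and Y boxes.

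In GRCm38.p6, whose main chromosomes are those of the mm10 build named in the submitters' processing notes, 5 of the 7 genes lie together on chromosome 17 in the MHC (H2-DMa at chr17:34119693-34139101, H2-DMb1 at chr17:34153191-34160229, H2-Ab1 at chr17:34263227-34269418, H2-Aa at chr17:34282744-34287823 and H2-Eb1 at chr17:34305867-34316674). Ciita lies at chr16:10480014-10531064 and Cd74 on neither of these chromosomes. RefSeq promoter entries were found for 4 of the 7 genes (H2-Aa, H2-Eb1, H2-DMa and H2-DMb1), and not for H2-Ab1, Ciita or Cd74. The stretches of 3 of these promoters that hold both boxes are shown because the RFX and NF-Y factors that recruit CIITA are known to bind these elements. Each is 5′ to 3′ on the strand of the gene, with the X box core (GNAACT) and the Y box (TGATTGG) in capitals, and runs over chr17:34287855-34287916 (minus strand), chr17:34305764-34305824 (plus) and chr17:34153085-34153146 (plus), in this order.
H2-Aa: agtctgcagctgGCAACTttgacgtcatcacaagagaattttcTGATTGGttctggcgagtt
H2-Eb1: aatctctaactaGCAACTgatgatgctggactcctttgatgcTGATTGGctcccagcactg
H2-DMb1: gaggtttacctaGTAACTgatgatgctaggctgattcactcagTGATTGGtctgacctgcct
The X box core lay 81, 91 and 94 bases before the annotated start of H2-Aa, H2-Eb1 and H2-DMb1, and the Y box 50, 61 and 63 bases before it, with 24 or 25 bases between them. Over 250 bases before each start and on both strands, the pair in this order with 8 to 40 bases between its parts was found in 0.25% of 32851 promoter entries, the X box core alone in 37.3% and the Y box alone in 7.23%. Neither of the 2 H2-DMa entries held either motif in these letters, and the entry of the related gene H2-DMb2 held the Y box only. A match is a description of these letters and not a measured binding site.

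Libraries held 21529691 to 125617312 UMIs and, after filters on detected genes and mitochondrial counts, 939 to 14525 cells, with 58645 cells kept of 89147 barcodes in all. Median depth ran from 2110 to 13754 UMIs per kept cell, and the limit on mitochondrial counts removed 15.7 to 57.0% of the cells of WT libraries against 8.67 to 21.3% of those of knockout libraries. Of 84658 barcode sequences, 4365 occurred in more than 1 library. Kmt2d KO library 2 stood apart from the other Kmt2d KO libraries in the results below, and each result that rests on it is given with and without it. Apart from the targeted transcripts below, no genes were used to check its label, and a Kmt2d KO tumour that differed was not told apart from a mislabelled library. The targeted transcripts were still counted in their knockouts (log2 change in tumour cells −0.01, adjusted p = 0.939, for Kmt2c in Kmt2c KO and 0.56, adjusted p = 0.0824, for Kmt2d in Kmt2d KO), so that RNA did not check these labels.

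Cells were assigned by marker genes that include no class II gene. Tumour cells held at least 1 H2BMc UMI, and the other types at least 3 of 12 markers of their own, more than of any other type, and no H2BMc UMI. This gave 16125 tumour cells, 450 endothelial cells, 841 macrophages and 257 dendritic cells, with 344 to 3354, 29 to 74, 30 to 210 and 12 to 59 cells per library. Among these 4 types, markers held out of the assignment were highest in the cells of their name. Summed over 6 genes such as Ramp2 and Podxl, held-out endothelial markers stood at 2468 counts per 1000000 UMIs (CPM) in endothelial cells against 17.7 in tumour cells. Held-out macrophage markers such as Tyrobp and Lyz2 summed to 9860 CPM in macrophages, 2948 in dendritic cells and 30.7 in endothelial cells, and held-out dendritic markers such as Itgax and Irf8 to 3477 CPM in dendritic cells and 663 in macrophages. Below, UMIs were summed per library over the cells of a type, since cells are not replicates, and compared with edgeR's quasi-likelihood test, whose p-values were adjusted over all genes tested by the Benjamini-Hochberg method. A gene was called at an adjusted p below 0.05, and it is said to have risen or fallen only then. Sums per cell type do not tell a change in every cell from a change in the share of cells that express a gene.

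The level of Cd74 fell into 2 patterns. In macrophages it stood at 13083, 20480 and 18733 CPM in WT libraries 1 to 3, at 9624, 8917 and 12056 CPM in Kmt2c KO and at 12903, 10698 and 7894 CPM in Kmt2d KO. In dendritic cells it stood at 16925, 25250 and 22714 CPM in WT, 6657, 16707 and 15855 CPM in Kmt2c KO and 17995, 13489 and 23693 CPM in Kmt2d KO. All 18 values were thus high, whatever the genotype.

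In endothelial cells Cd74 stood at 24.6, 102 and 64.7 CPM in WT libraries, at 2025, 1848 and 2597 CPM in Kmt2c KO and at 86.4, 1702 and 106 CPM in Kmt2d KO. In tumour cells it stood at 3.13, 2.33 and 5.68 CPM in WT, 34.5, 46.6 and 69.2 CPM in Kmt2c KO and 6.35, 53.9 and 5.38 CPM in Kmt2d KO. In both types the Kmt2c KO libraries lay above every WT library without overlap, Kmt2d KO library 2 lay at or near the Kmt2c KO levels, and Kmt2d KO libraries 1 and 3 lay beside WT.

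**Figure D1:**
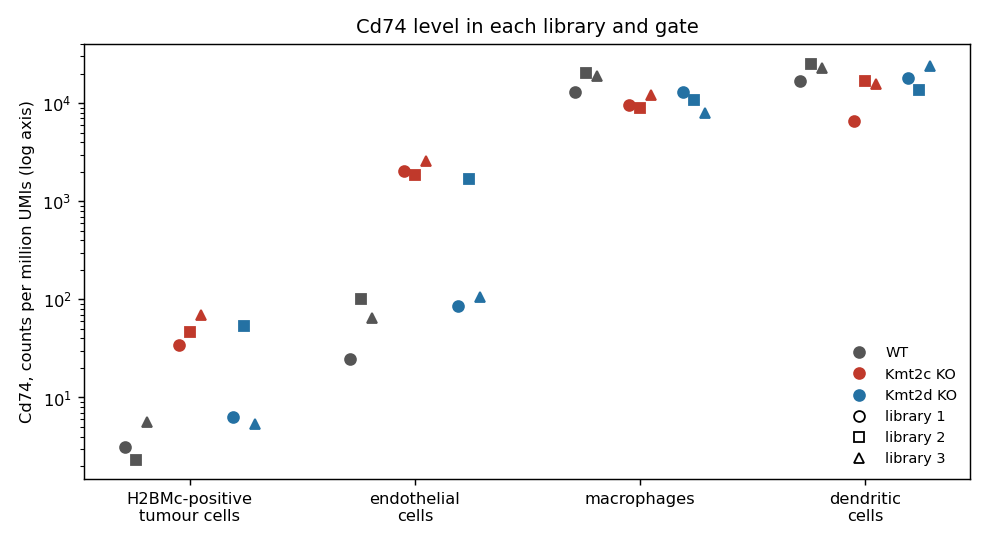
Cd74 level (CPM, log axis) in tumour cells, endothelial cells, macrophages and dendritic cells, with 1 point per library, coloured by genotype and shaped by library number. Macrophages and dendritic cells sit between 6657 and 25250 CPM in every library, whereas endothelial cells range from 24.6 to 2597 CPM and tumour cells from 2.33 to 69.2 CPM, with the Kmt2c KO libraries and Kmt2d KO library 2 on top.

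Between cell types of the same libraries, the order for each of the 7 genes, averaged over genotypes, was dendritic cells and macrophages, then endothelial cells, then tumour cells. In WT the last step did not hold for the H2-DM genes. Summed over the WT libraries, H2-DMa stood at 6.97 CPM in endothelial and 7.30 CPM in tumour cells, and H2-DMb1 gave no UMI in endothelial cells and 1.06 CPM in tumour cells. Macrophages exceeded endothelial cells in 7 of 7 genes (26.2% of all 8280 genes tested were higher in macrophages), with log2 differences from 3.57 ± 0.52 (SE) for Ciita to 5.41 ± 0.52 for H2-Aa. Endothelial cells exceeded tumour cells in 7 of 7 genes (29.5% of all genes tested), with log2 differences from 1.51 ± 0.43 for H2-DMa to 5.50 ± 0.57 for H2-Ab1. Dendritic cells and macrophages were neighbours that mostly could not be separated. Only Ciita was called higher in dendritic cells, in 1 of 7 genes against 12.8% of all genes tested (log2 difference 1.26 ± 0.37, adjusted p = 0.00883), while the other 6 differed by 0.22 to 0.88. The distance between macrophages and endothelial cells depended on the library. The macrophage level of Cd74 was 201 to 531 times the endothelial level in WT libraries, 4.64 to 4.83 times in Kmt2c KO, 149 and 74.6 times in Kmt2d KO libraries 1 and 3 and 6.29 times in Kmt2d KO library 2.

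In endothelial cells the class II genes that could be tested rose in Kmt2c KO tumours. Of the 5 members that passed the filter on low counts, 5 were called higher in Kmt2c KO than in WT, where 4.05% of 5771 genes tested were. The filter asked for 31.9 CPM in at least 3 libraries. Within WT, H2-Ab1 met this in 3 libraries, H2-Aa, H2-Eb1 and Cd74 in 2 and H2-DMa in 0, so that 4 of the 5 passed through knockout libraries and their count is a description. The study itself singled out class II genes, among them H2-Eb2, H2-Ab1 and Cd74, in the endothelium of these same samples, so this count is not independent evidence. The β chain gene H2-Ab1 stood at 35.6, 74.2 and 66.7 CPM in WT, 876, 1026 and 990 CPM in Kmt2c KO and 76.8, 639 and 100.4 CPM in Kmt2d KO, a rise of 4.03 ± 0.59 on the log2 scale in Kmt2c KO (adjusted p = 0.00154). Its partner H2-Aa, at 10.9, 34.8 and 58.6 CPM in WT and 329, 302 and 460 CPM in Kmt2c KO, rose by 3.32 ± 0.66 (adjusted p = 0.0081). The second β chain gene, H2-Eb1, rose by 3.84 ± 0.72 (adjusted p = 0.00539), from 5.47, 46.4 and 54.6 CPM to 526, 461 and 600 CPM. Each Kmt2c KO library lay above each WT library for these chains, as it did for 12.3% of all genes tested.

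Among the members that passed the filter, Cd74 showed the largest of the endothelial changes, 5.07 ± 0.87 (adjusted p = 0.00326). H2-DMa, a subunit of the H2-DM exchange factor, was at 0, 6.96 and 12.1 CPM in WT and 59.8, 73.6 and 87.3 CPM in Kmt2c KO, a rise of 3.36 ± 0.76 (adjusted p = 0.0167). This call was lost without WT library 1 or 2 or Kmt2c KO library 2 or 3 (adjusted p = 0.0582 to 0.065), while those of the 4 other genes held whichever library was left out. Ciita, the master regulator, and H2-DMb1, the other subunit of H2-DM, were too low for the filter. Ciita gave 0, 0 and 3 UMIs in WT libraries and 11, 5 and 9 in Kmt2c KO, a ratio of summed levels of 16.2 (95% counting interval 4.95 to 83.9, exact binomial). H2-DMb1 gave no UMI in any WT library and 7, 6 and 5 in Kmt2c KO, at least 11.7-fold higher than the 2.32 CPM that 3 counts over the WT libraries would give.

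In Kmt2d KO none of these 5 genes was called in endothelial cells (1.02% of genes tested were called in either direction, 746 had an unadjusted p below 0.05, and DESeq2 called 0 of the 4 for which it gave an adjusted p, Cd74 having none). The changes ran from 1.49 ± 0.71 for H2-Aa (adjusted p = 0.393) to 3.29 ± 0.84 for Cd74 (adjusted p = 0.0728). For all 7 genes Kmt2d KO library 2 lay above every WT library (32.3% of all genes tested), and libraries 1 and 3 lay below every Kmt2c KO library (13.9%). In 3 of the 7 genes neither library 1 nor library 3 exceeded the highest WT library (55.0% of all genes tested), while for H2-Ab1 and H2-DMa both did. H2-Aa stood at 275 CPM in library 2 against 25.6 and 27.4 CPM in libraries 1 and 3. Without library 2 the changes in Kmt2d KO ran from −0.47 for H2-Aa to 0.84 for H2-DMa, and none was called. None of the 5 genes was called between the knockouts with all libraries (log2 differences −1.07 to −1.87, 0.0173% of genes tested called, 707 with an unadjusted p below 0.05, 0 of the 3 members with an adjusted p called by DESeq2). Without library 2 the log2 differences ran from −2.51 for H2-DMa to −4.49 for Cd74, given as a description with no test, since the library stood apart by the levels of these same genes.

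In tumour cells of Kmt2c KO the chain genes and Cd74 rose from lower WT levels than in endothelial cells. H2-DMa rose from a like WT level. Of the 7 members, 6 were called higher in Kmt2c KO than in WT, against 10.1% of 13956 genes tested. Ciita, with 1 UMI in all WT libraries, passed the low-count filter through the knockout libraries, and without it the count was 5 of 6. H2-Ab1 stood at 1.29, 0.799 and 1.75 CPM in WT, 13.8, 17.4 and 23.4 CPM in Kmt2c KO and 2.23, 17.3 and 1.87 CPM in Kmt2d KO, and rose by 3.89 ± 0.91 on the log2 scale in Kmt2c KO (adjusted p = 0.0155). H2-Aa, at 1.40, 2.18 and 3.60 CPM in WT and 13.3, 16.1 and 25.5 CPM in Kmt2c KO, rose by 2.95 ± 0.76 (adjusted p = 0.0237). H2-Eb1, at 1.51, 0.945 and 2.07 CPM in WT and 13.6, 14.0 and 21.1 CPM in Kmt2c KO, rose by 3.49 ± 0.85 (adjusted p = 0.0185). These 3 changes were not tested against each other. Each Kmt2c KO library lay above each WT library for the chains, as for 20.3% of all genes tested.

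Cd74 rose by 3.81 ± 0.90 (adjusted p = 0.0163) in tumour cells of Kmt2c KO. Ciita gave 0, 0 and 1 UMI in WT libraries, 51, 36 and 48 in Kmt2c KO and 2, 42 and 7 in Kmt2d KO. Its call in Kmt2c KO (adjusted p = 0.0296) rests on a WT group with a single UMI, and the ratio of summed levels was 47.9 (95% counting interval 8.45 to 1905). H2-DMa, which already stood at 5.07, 8.87 and 7.20 CPM in WT, reached 13.9, 16.2 and 22.0 CPM in Kmt2c KO, a rise of 1.29 ± 0.32 (adjusted p = 0.0197). H2-DMb1 stood at 1.40, 0.654 and 1.31 CPM in WT and 2.26, 2.40 and 3.72 CPM in Kmt2c KO, a change of 1.37 ± 0.51 that was not called (adjusted p = 0.0842) although the groups did not overlap. H2-DMb1 and H2-DMb2 are near-identical neighbours, so that the split of reads between them is uncertain.

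These calls depended on the libraries in the fit. Of the 7 members, 0 were called higher without WT library 1, where 4.9% of genes tested were, and 1 without WT library 2 (4.37%) or 3 (5.06%). Without Kmt2c KO library 1, 2 and 3 they numbered 5, 4 and 2 (8.53, 5.81 and 5.85%). Without Kmt2d KO library 2, which stood apart by these same genes, they numbered 7 (14.2%). No change in Kmt2c KO turned its direction in these fits. All groups share 1 estimate of the spread, and in the last fit the change of Cd74 in Kmt2c KO was 3.80 ± 0.29, with a smaller SE than with library 2.

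In Kmt2d KO 0 of the 7 members were called in tumour cells (2.18% of genes tested were called in either direction, 2372 had an unadjusted p below 0.05, DESeq2 called 0 of the 6 with an adjusted p). Changes ran from 0.39 ± 0.53 for H2-DMb1 to 3.92 ± 1.72 for Ciita, with Cd74 at 2.58 ± 0.90 (adjusted p = 0.183). As in endothelial cells, Kmt2d KO library 2 lay above every WT library for all 7 genes (37.6% of all genes tested), and libraries 1 and 3 lay below every Kmt2c KO library (21.6%). In 4 of the 7 genes neither of these 2 libraries exceeded the highest WT library (58.4%). These orders are descriptions, as library 2 was singled out after its values were seen. Without library 2 the change of Cd74 in Kmt2d KO was 0.68 ± 0.36 (adjusted p = 0.311) and that of the other members −0.33 to 1.86, and 0 of 7 were called. The knockouts differed in 0 of 7 members with all libraries (0.0% of genes tested, 2443 of them with an unadjusted p below 0.05, 0 of the 6 with an adjusted p by DESeq2, log2 differences −0.76 to −1.49). Without library 2 they ran from −1.18 for H2-DMa to −3.50 for Ciita, again a description with no test.

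**Figure D2:**
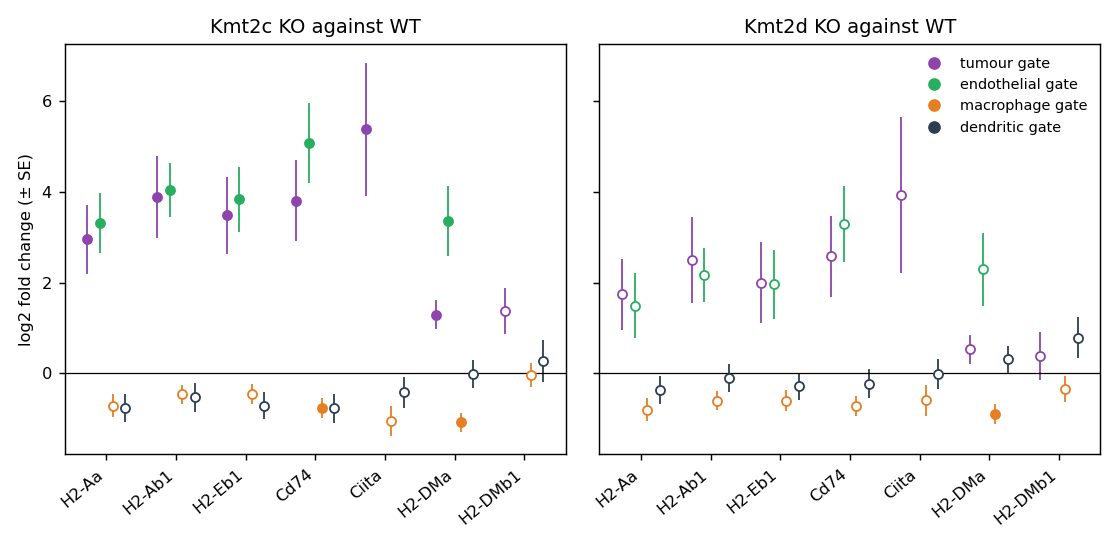
Log2 fold change (± SE) of the 7 genes against WT in each cell type, for Kmt2c KO and Kmt2d KO, with filled points for genes called at an adjusted p below 0.05. In Kmt2c KO the tumour and endothelial points lie between 1.29 and 5.37, above 0, while the macrophage points lie between −1.08 and −0.04. In Kmt2d KO the error bars are wide, and H2-DMa in macrophages (−0.90) is the only filled point.

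In macrophages the genes did not rise in either knockout, and 2 of them fell. H2-DMa stood at 848, 767 and 707 CPM in WT, 319, 320 and 439 CPM in Kmt2c KO and 427, 450 and 346 CPM in Kmt2d KO. It fell by 1.08 ± 0.21 on the log2 scale in Kmt2c KO (adjusted p = 0.00515) and by 0.90 ± 0.22 in Kmt2d KO (adjusted p = 0.0324). Cd74 fell by 0.76 ± 0.22 in Kmt2c KO (adjusted p = 0.0383), and its change in Kmt2d KO was −0.72 ± 0.22 (adjusted p = 0.0928). In all, 2 of 7 members were called lower in Kmt2c KO, where 3.45% of 5398 genes tested were, and 1 of 7 in Kmt2d KO, where 0.463% were.

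For the chains in macrophages, the Kmt2d KO libraries lay below every WT library, and so did the Kmt2c KO libraries for H2-Ab1 but not for H2-Aa and H2-Eb1. How many of all genes had such an order in macrophages was not counted, so it is a description only. H2-Aa stood at 5019, 7840 and 8040 CPM in WT, 3997, 3454 and 5212 CPM in Kmt2c KO and 4331, 4859 and 2662 CPM in Kmt2d KO, with changes of −0.71 ± 0.25 (adjusted p = 0.0927) and −0.80 ± 0.25 (adjusted p = 0.0997). H2-Ab1 stood at 5172, 5925 and 6335 CPM in WT, above the 4280, 3481 and 4726 CPM of Kmt2c KO, with a change of −0.46 ± 0.20 (adjusted p = 0.183). H2-Eb1 changed by −0.45 ± 0.23 and −0.60 ± 0.23, without a call. Ciita, at 264, 142 and 291 CPM in WT and 86.0, 90.2 and 153 CPM in Kmt2c KO, changed by −1.04 ± 0.33 (adjusted p = 0.0587), and H2-DMb1 by −0.04 ± 0.27. The knockouts differed from each other in 0 of 7 members (0.0926% of genes tested were called, 344 had an unadjusted p below 0.05, DESeq2 called 0 of 7), with log2 differences from −0.31 to 0.45.

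Other macrophage genes moved in the same direction. The summed level of the 6 held-out macrophage markers was 14524 to 16024 CPM in WT, 7868 to 10075 CPM in Kmt2c KO and 5089 to 11437 CPM in Kmt2d KO, and the 7 class II genes gave 1.78 to 2.76, 2.43 to 2.84 and 2.29 to 3.24 UMIs per UMI of these markers in the 3 groups. Krt8, a keratin of the tumour cells, rose in the macrophage sums of Kmt2c KO (2.82 on the log2 scale, adjusted p = 0.0294), and stood at 0, 62.5 and 0 CPM in WT and 204, 173 and 52.9 CPM in Kmt2c KO. The part of either in the fall of Cd74 and H2-DMa was not tested. Among macrophages with no Krt8 UMI the changes in Kmt2c KO were −0.36 ± 0.19 for Cd74 (adjusted p = 0.290) and −0.69 ± 0.20 for H2-DMa (adjusted p = 0.0321), and H2-DMa changed by −0.38 ± 0.20 in Kmt2d KO (adjusted p = 0.607). The call of Cd74 was lost without WT library 2 or 3 or Kmt2c KO library 1 or 2 (adjusted p = 0.121 to 0.15), and that of H2-DMa in Kmt2d KO without any of the WT libraries or Kmt2d KO library 3.

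In dendritic cells, of which some libraries held only 12 to 15, no member was called in either knockout (0.552% and 0.0552% of 1813 genes tested were, 210 and 71 had an unadjusted p below 0.05, DESeq2 called 0 of 7 in each). Cd74 changed by −0.77 ± 0.31 in Kmt2c KO (adjusted p = 0.323) and by −0.22 ± 0.31 in Kmt2d KO (adjusted p = 0.997). Its Kmt2c KO libraries lay below its WT libraries, an order whose share over all genes was not counted here. The log2 changes of the 7 genes lay between −0.77 and 0.27 in Kmt2c KO and between −0.37 and 0.78 in Kmt2d KO. The knockouts differed in 0 of 7 members (0.496% of genes tested, 152 with an unadjusted p below 0.05, 0 of 7 by DESeq2).

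The difference in response between cell types was itself tested, in a fit with library as a block. The effect of Kmt2c KO was higher in endothelial cells than in macrophages for 7 of 7 members (1.04% of 8773 genes tested), with Cd74 5.88 ± 0.79 apart on the log2 scale (adjusted p = 2.49e-05). Of these 7, Ciita and H2-DMb1 had been too low for the endothelial filter and passed through the other cell types, and H2-DMb1, without a UMI in WT endothelial cells, lost its call without WT library 3 (adjusted p = 0.0968). It was higher in tumour cells than in macrophages for 6 of 7 members (3.58% of genes tested), with Cd74 4.55 ± 0.76 apart (adjusted p = 0.000132) and H2-DMb1 1.46 ± 0.52 apart without a call (adjusted p = 0.0781). For Kmt2d KO, 4 of 7 members differed between tumour cells and macrophages (1.21% of genes tested) and 2 of 7, H2-DMa and Cd74, between endothelial cells and macrophages (0.342%). Without Kmt2d KO library 2, which stood apart by these same genes, these counts were 2 of 7 and 0 of 7, a description with no test. Without WT library 1 or 3 both were 0. With each library left out in turn, 67 to 607 of all genes were called between tumour cells and macrophages for Kmt2d KO. Between endothelial cells and macrophages 25 to 215 were. The 2 comparisons of a cell type share their macrophage and WT sums.

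The share of cells with at least 1 UMI of a gene rises with depth, which differed between libraries and cell types, so that shares are given as deposited and after thinning every cell to 1000 UMIs. Nearly all macrophages and dendritic cells held Cd74, 86.6 to 97.1% and 93.2% or more per library as deposited. Thinned, the macrophage shares were 92.1 to 94.6% in WT, 86.9 to 90.5% in Kmt2c KO and 78.2 to 80.3% in Kmt2d KO, without overlap between the groups, and the dendritic shares 90.7 to 99.9%. The macrophage share of Kmt2d KO minus that of WT was −14.0 percentage points (exact permutation test, p = 0.1, 0.233 adjusted), where p = 0.1 is the smallest that 3 tumours against 3 allow. In endothelial cells the shares were 6.38, 8.11 and 22.6% in WT, 77.4, 72.5 and 79.3% in Kmt2c KO and 12.5, 75.0 and 25.8% in Kmt2d KO. Thinned, they were 1.61, 4.13 and 7.20% in WT, 67.3, 54.1 and 66.9% in Kmt2c KO and 5.55, 57.4 and 9.53% in Kmt2d KO. Most endothelial cells of the Kmt2c KO libraries and of Kmt2d KO library 2 thus held the transcript, and few of the other libraries did. The thinned share was 62.8% ± 7.48 (SD, n = 3) in Kmt2c KO against 4.31% ± 2.80 (n = 3) in WT, 58.5 percentage points apart. With 3 tumours against 3, the two-sided exact permutation test cannot give a p below 0.10, and it gave p = 0.1 (0.175 adjusted over the 14 tests of the cell type).

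In tumour cells Cd74 was found in 4.48, 3.36 and 12.2% of WT cells, 14.9, 18.5 and 22.9% of Kmt2c KO cells and 4.73, 23.7 and 7.29% of Kmt2d KO cells. Thinned, the shares were 0.402, 0.287 and 1.18%, 3.55, 4.32 and 5.31%, and 0.729, 5.95 and 1.84%. The difference between Kmt2c KO and WT, 3.77 percentage points, had the smallest p the exact permutation test allows (p = 0.1, 0.2 adjusted), as had those of the 6 other members. Free RNA in droplets also gives UMIs in cells that do not express a gene. T and NK cells, which should lack class II genes, numbered 10, 229 and 70 in the Kmt2c KO libraries. Of these, 11.8 to 20.0% held Cd74 as deposited and 9.23 to 13.5% after thinning (median depth 1086 to 1279 UMIs, against 8603 to 11695 in tumour cells). In Kmt2d KO libraries 1 to 3, 5 of 63, 0 of 11 and 5 of 23 T and NK cells held it as deposited. In WT libraries 1 to 3, 1 of 17, 1 of 16 and 1 of 21 did. The 7 genes summed to 254 to 279 CPM in T and NK cells of Kmt2c KO and 75.8 to 275 CPM in those of WT. In tumour cells they summed to 92.9 to 167 CPM in Kmt2c KO and 13.8 to 21.7 CPM in WT. After thinning the tumour cell shares of Kmt2c KO did not exceed those of its T and NK cells. Thinning removes most UMIs of tumour cells and few of T and NK cells, so this comparison cannot decide. As deposited, the tumour shares of Kmt2c KO libraries 2 and 3 exceeded the 11.8 and 15.7% of T and NK cells of the same libraries, at several times their depth. The tumour shares are thus not read as expression on their own, whereas the endothelial shares exceeded them in each Kmt2c KO library. The part of free RNA in the summed tumour cell levels and their rises was not tested.

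**Figure D3:**
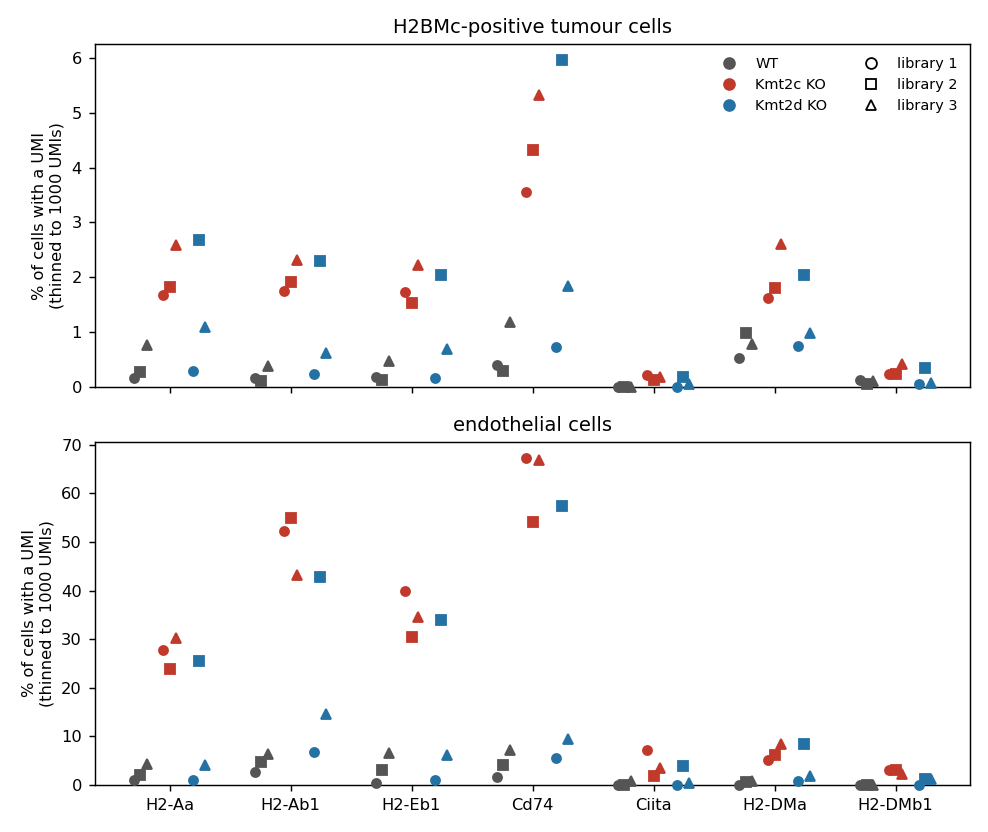
Share of cells with at least 1 UMI of each of the 7 genes after thinning every cell to 1000 UMIs (%), in tumour cells and in endothelial cells, with 1 point per library, coloured by genotype and shaped by library number. For Cd74 the 3 Kmt2c KO libraries lie at 54.1 to 67.3% in endothelial cells and 3.55 to 5.31% in tumour cells, with Kmt2d KO library 2 beside them and the other libraries at or below 9.53% and 1.84%.

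Within the tumour cells the class II UMIs were concentrated in some cells. Cells with at least 3 of the 7 genes made up 0.708, 0.112 and 1.45% of WT tumour cells (3, 1 and 5 cells), 5.13, 7.24 and 11.4% in Kmt2c KO (172, 181 and 244 cells) and 0.495, 10.8 and 0.879% in Kmt2d KO (9, 207 and 24 cells). The 1% of tumour cells with the most class II UMIs held 27.7 to 28.9% of them in the Kmt2c KO libraries, while 53.1 to 66.9% of cells held none. This top 1% held 11.1 to 20.3% in WT and 33.8, 27.5 and 14.2% in Kmt2d KO libraries 1 to 3. In the Kmt2c KO libraries H2-Ab1 was found in 29.5, 33.0 and 36.9% of cells with a Cd74 UMI and in 3.47, 4.66 and 4.54% of cells without one, at like median depths (8677 and 8583, 10500 and 10588, and 11574 and 11717 UMIs). In WT libraries 1 to 3 these shares were 15.8 and 1.48%, 0 and 1.27%, and 11.9 and 2.65%. In Kmt2d KO libraries 1 to 3 they were 11.6 and 1.04%, 34.8 and 4.52%, and 10.6 and 2.09%. In the Kmt2c KO libraries the genes were thus found in the same cells rather than scattered. Every other library but WT library 2 had this direction too, so it was not particular to Kmt2c KO.

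In tumour cells the 6 held-out macrophage markers summed to 4.65 to 9.39 CPM in WT, 8.88 to 11.0 CPM in Kmt2c KO and 5.72 to 11.0 CPM in Kmt2d KO. The class II genes gave 2.31 to 3.39 UMIs per UMI of these markers in WT tumour cells, a ratio like that of macrophages, but 10.5, 11.0 and 15.1 in Kmt2c KO, 11.3 in Kmt2d KO library 2 and 3.49 to 3.57 in the other Kmt2d KO libraries. In dendritic cells the ratio was 8.93 to 20.6, a range that holds the Kmt2c KO values. The 6 held-out dendritic markers summed to 67.1 to 74.2 CPM in WT tumour cells, 74.7 to 83.1 CPM in Kmt2c KO and 67.9 to 86.5 CPM in Kmt2d KO. Of these Id2 alone gave 65.2 to 83.8 CPM, while Itgax gave at most 0.108 CPM and Cd83 at most 0.141 CPM in any library. In tumour cells of Kmt2c KO with at least 3 of the genes the held-out macrophage markers stood at 15.9 to 22.6 CPM, against 8.20 to 10.4 CPM in the other cells, and Krt8 at 164 to 219 CPM, against 246 to 345 CPM. The reporter H2BMc stood at 137 to 186 CPM in the former and 142 to 152 CPM in the latter. The 9 WT cells of this kind differed, with macrophage markers at 80.3 to 144 CPM. In endothelial cells the ratio was 1.56 to 9.50 in WT, 80.8 to 114 in Kmt2c KO, 123 in Kmt2d KO library 2 and 23.0 in library 3, over 7 to 21 marker UMIs per library, while Kmt2d KO library 1 held no UMI of these markers. Held-out dendritic markers in endothelial cells summed to 111 to 153 CPM in WT, 279 to 419 CPM in Kmt2c KO and 117 to 201 CPM in Kmt2d KO. Of these 6 genes, Irf8, which is also in the interferon gamma signalling list below, gave 50.5 to 57.5 CPM in WT and 190 to 344 CPM in Kmt2c KO, and Itgax and Cd83 were at 0 in every library.

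The rest of the pathway was read from 4 lists of other genes. Of the interferon gamma targets, 16 of 17 tested rose in tumour cells of Kmt2c KO (median log2 change 3.19, against 0.01 for all genes), 14 of 18 in endothelial cells (2.10) and 10 of 16 in macrophages (1.72), where 5.95% of all genes tested rose. The GTPase gene Igtp rose by 3.85 ± 0.79, 2.76 ± 0.50 and 2.95 ± 0.72 in the 3 cell types, and the class I transactivator gene Nlrc5, a relative of Ciita, by 1.87 ± 0.35, 2.09 ± 0.46 and 1.89 ± 0.35. The T cell chemokine gene Cxcl9 rose by 3.81 ± 0.80 and the tryptophan-degrading enzyme gene Ido1 by 6.71 ± 1.42 in endothelial cells. The study itself had singled out Cxcl9 in the endothelium, and interferon signalling and Cd274 in the tumour cells, of these same samples. These counts of targets are thus not independent evidence. The macrophage sums of Kmt2c KO thus showed higher interferon targets without higher class II genes. These sums also held more Krt8, as given above. The part of tumour cell material in their interferon targets was not tested. In Kmt2d KO none of these targets was called in the 3 cell types, at medians of 1.85, 0.99 and 0.87. Without Kmt2d KO library 2, 5 of 17 were higher in tumour cells (median 0.46, 2.88% of genes tested higher), 0 of 18 in endothelial cells (median −0.04) and 0 of 16 in macrophages (median −0.26). These counts are descriptions and not tests, as library 2 was singled out after its values were seen.

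Of 10 interferon gamma signalling genes, 5 rose in tumour cells of Kmt2c KO, 4 in endothelial cells and 3 in macrophages, against the 10.1%, 4.05% and 5.95% of all genes tested that rose there, with medians of 0.56, 0.77 and 0.15. The transcription factor gene Irf1 rose by 1.79 ± 0.24 in tumour cells, 1.77 ± 0.28 in endothelial cells and 1.41 ± 0.33 in macrophages of Kmt2c KO. The feedback inhibitor Socs1 rose in all 3 (1.20 ± 0.18, 3.65 ± 0.56 and 2.61 ± 0.42). Irf2 (0.54 ± 0.13) and Socs3 (0.58 ± 0.18) rose in tumour cells, Irf8 (2.22 ± 0.38) rose in endothelial cells, and Ifngr1, a chain of the receptor, fell by 1.09 ± 0.29 in macrophages.

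No factor that CIITA joins at the promoter was called. Of 8 tested in tumour cells, 4 in endothelial cells and 3 in macrophages, 0 were called in either knockout, with median log2 changes in Kmt2c KO of −0.01, −0.12 and −0.14. In Kmt2c KO 10.1%, 4.05% and 5.95% of all genes tested rose in these cell types, shares that leave out genes called lower, and 3.45% fell in macrophages. In Kmt2d KO 2.18% were called in either direction in tumour cells and 1.02% in endothelial cells, and 0.463% fell in macrophages. A count of 0 among so few genes is thus not read as a result about these factors. Rfx5 changed by −0.19, Rfxap by −0.06 and Nfya by 0.12 in tumour cells of Kmt2c KO. Of the other class II chains, peptide editors and processing genes, 9 of 13 listed names were in the feature table. H2-DMb2 rose by 1.06 ± 0.31 in tumour cells (adjusted p = 0.0388) and gave 0, 0 and 1 UMI in WT and 8, 6 and 16 in Kmt2c KO endothelial cells, where it passed the filter through the knockout libraries (adjusted p = 0.02). In macrophages H2-DMb2 fell by 0.84 ± 0.24 (adjusted p = 0.0397) and the thiol reductase gene Ifi30 by 0.84 ± 0.22 (adjusted p = 0.0216). The protease genes Ctss and Lgmn were not called in tumour cells (1.79, adjusted p = 0.107, and 0.04, adjusted p = 0.9). H2-Eb2 gave no UMI in tumour cells, endothelial cells or macrophages of any library, and 0 of 450 endothelial cells allows a share with a UMI of up to 0.667%. In dendritic cells no gene of these lists was called, and no transcription factor passed the filter.

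**Figure D4:**
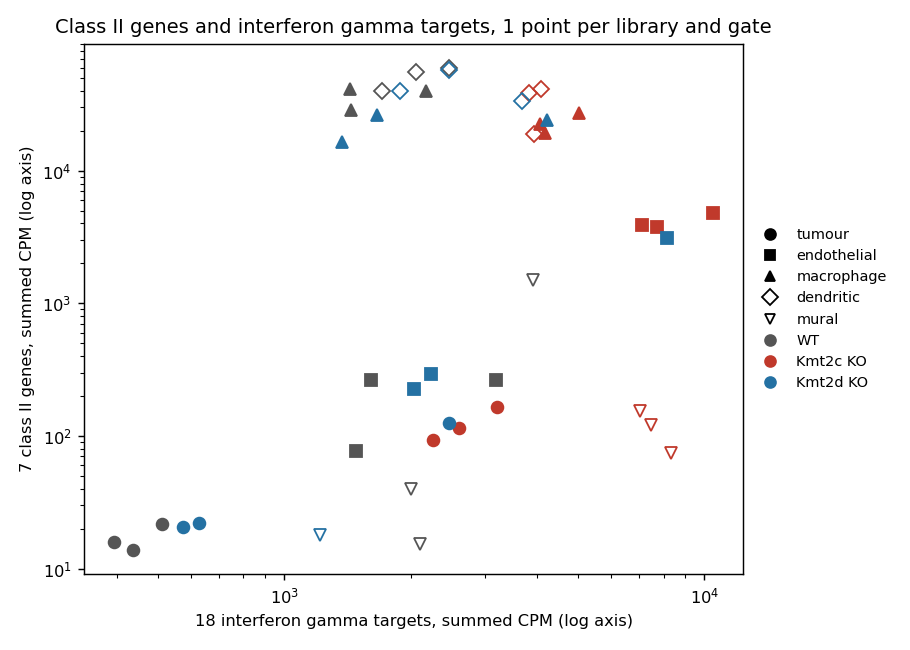
Summed level of the 7 class II genes (CPM, log axis) against that of 18 interferon gamma targets (CPM, log axis), with 1 point per library and cell type, shaped by cell type (gate) and coloured by genotype, and with mural cells, the pericytes and smooth muscle of vessels, for libraries with at least 10 of them. Tumour cells run from 13.8 CPM of class II genes at 437 CPM of targets (WT library 1) to 167 at 3215 (Kmt2c KO library 3) and endothelial cells from 76.6 at 1483 to 4815 at 10486, while macrophages stay between 16493 and 41141 CPM at 1370 to 5027 CPM of targets.

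Across cells the genes and the targets also went together. In Kmt2c KO tumour cells with at least 3 class II genes the 18 targets summed to 3707, 4979 and 5145 CPM, against 2073, 2236 and 2662 CPM in cells with none. The latter levels still lay above those of cells with none in WT (378 to 527 CPM), so that tumour cells without a class II UMI also held more of the targets in Kmt2c KO. In Kmt2d KO library 2 the values were 4462 and 2049 CPM. By a rule that names the 5 genes closest to the mean log2 level of the members over the 9 tumour cell sums, these were Igtp, Gbp3, Iigp1, Slfn8 and Gbp10 (Pearson r 0.996 to 0.998 over 9 libraries), a description of libraries that fall into separate groups. Among the members themselves r with their mean was 0.989 to 0.996 for the chains and Cd74, 0.991 for Ciita, and 0.934 and 0.919 for H2-DMa and H2-DMb1.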

How the data were processed

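The authors deposited UMI counts per gene and cell barcode, made with Cell Ranger 7.0.1 on mm10 per the labels and combined over libraries in 1 table. The annotation, and any thinning of libraries to a common depth when they were combined, were not given in the sources used here. The host mice are BALB/c and the reference is C57BL/6, and the effect of that on MHC counts was not tested.

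Cells with more than 500 and fewer than 7500 genes and under 15% mitochondrial counts were kept, the limits of the study. Tumour cells were also limited to at most 1 marker of each of the macrophage, dendritic, T/NK, B cell and neutrophil lists. Other types needed 3 of 12 markers, more than of any of the 7 other lists, and no H2BMc UMI. No doublet caller was run, and cells with equally many markers of several types dropped out. Counts were summed per library and type (at least 10 cells), filtered with filterByExpr, scaled by TMM and fitted over all 9 libraries with edgeR 4.0.16 in R 4.3.3 (glmQLFit, glmQLFTest). DESeq2 1.42.0 was an alternative. Log2 fold changes were fitted with a prior count, and SEs were derived from the quasi-likelihood F. Cell types were compared in 1 fit with library as a block. Scripts were tested on simulated data. Shares were computed in Python 3.11.15 with SciPy 1.17.1. Intervals and floors cover counting error only.

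The members and gene lists were chosen with earlier results of these data known. All 7 members are named in tumour cells, endothelial cells and macrophages, while in dendritic cells Cd74 is named and the others lie within a range. The interferon and transcription factor lists are given as counts with some genes named. The list of other class II chains and editors is given by named genes without counts per direction. Kmt2c, Kmt2d, H2BMc and Krt8 served as checks. The values of 1 listed gene are not reported here.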

Additional observations from a re-analysis of the deposited data

Results flagged for a closer look

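In 19 cases the difference between a knockout and WT differed between cell types of the same libraries by a test of that difference itself, an interaction term in edgeR's quasi-likelihood test. Values are log2 differences between the fold changes of 2 cell types, and all are above 0.

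Between tumour cells and macrophages, the difference in Kmt2c KO was 5.92 for Ciita, 4.55 for Cd74, 4.36 for H2-Ab1, 3.97 for H2-Eb1, 3.70 for H2-Aa and 2.43 for H2-DMa. In Kmt2d KO it was 3.96 for Ciita, 2.61 for H2-Ab1, 2.24 for H2-Aa and 1.45 for H2-DMa.

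Between endothelial cells and macrophages, the difference in Kmt2c KO was 5.88 for Cd74, 5.11 for Ciita, 4.53 for H2-DMa, 4.53 for H2-Ab1, 4.38 for H2-Eb1 and 4.13 for H2-Aa. The value for H2-DMb1, 10.58, rests on WT endothelial sums without a single UMI and depends on the prior count, so that it is no bound. In Kmt2d KO the difference was 3.18 for H2-DMa and 3.05 for Cd74, the latter just past the threshold (adjusted p = 0.0481).

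The values for Ciita rest on WT sums of 1 UMI in tumour cells and 3 in endothelial cells. With each library left out in turn they ran from 5.56 to 7.12 in Kmt2c KO and 1.92 to 5.15 in Kmt2d KO between tumour cells and macrophages, and from 4.58 to 11.72 in Kmt2c KO between endothelial cells and macrophages.

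The calls for Kmt2c KO held whichever library was left out, except that of H2-DMb1 in endothelial cells, which was lost without WT library 3. Those for Kmt2d KO held less often, with 0 to 6 members called between tumour cells and macrophages and 0 to 5 between endothelial cells and macrophages. All genes called numbered 67 to 607 and 25 to 215 in these fits. Without WT library 1 or 3 none of the 7 members was called in Kmt2d KO in either comparison.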

How the results depend on the processing

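No paired analysis was possible because the library names of the count table carry no replicate number of the labels, so the fit with a replicate block was not run. The number of members called in Kmt2c KO against WT was 5 of 5 in endothelial cells and 6 of 7 in tumour cells. In all, the number of members called stayed within 1.5 times the reported one in 249 of 298 alternative fits. Fits with 0 members called both as reported and in the alternative are among these 249, so the number is no measure of stability. In tumour cells of Kmt2c KO the count ran from 0 to 7 with each library left out. Of 1583 log2 fold changes, 1429 kept their direction and side of the threshold, 57 became called, 81 lost a call and 16 turned. Of 352 differences in share, 346 kept their direction and 6 turned. The causes were not tested. DESeq2 gave no adjusted p for H2-Eb1 in tumour cells, for Cd74 in endothelial cells or for H2-DMa in endothelial cells between the knockouts.

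Members called changed with the following settings. Without the low-count filter they were 2 in tumour cells of Kmt2d KO, 5 in endothelial cells of Kmt2d KO, 4 in endothelial cells between the knockouts, 4 in macrophages of Kmt2c KO and 3 in macrophages of Kmt2d KO. With at least 2 markers per cell, 1 was called in endothelial cells of Kmt2d KO. In macrophages of Kmt2c KO, 4 were called with only the 2 groups in the fit and 1 without the mitochondrial limit, without the 5% of cells with the most UMIs, with at least 2 or 4 markers, with a lead of 2 markers or with no Krt8 UMI. In macrophages of Kmt2d KO, 0 were called with only the 2 groups, at least 2 or 4 markers, a lead of 2 markers or no Krt8 UMI. With a lead of 2 markers, the effect of Kmt2d KO differed from that in macrophages in 0 members in tumour cells and 1 in endothelial cells.

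None of the values that turned direction was called in the reported fits. H2-DMb1 in macrophages of Kmt2c KO changed by 0.0054 without the low-count filter, 0.022 without the mitochondrial limit, 0.16 without the cells with the most UMIs, 0.13 with at least 4 markers, 0.21 with a lead of 2 and 0.39 with no Krt8 UMI. With no Krt8 UMI, Ciita and H2-DMb1 in macrophages of Kmt2d KO changed by 0.0022 and 0.14. Cd74 in dendritic cells of Kmt2d KO changed by 0.014 with at least 20 cells per library. Unthinned, the H2-DMb1 share in tumour cells of Kmt2d KO differed by −0.572 percentage points.

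With each library left out in turn, members called ran from 0 to 7 in tumour cells of Kmt2c KO and between the knockouts (7 without Kmt2d KO library 2, which stood apart by these genes), 0 to 3 in endothelial cells of Kmt2d KO, 0 to 6 there between the knockouts, 1 to 4 in macrophages of Kmt2c KO and 0 to 3 of Kmt2d KO. The members whose effect of Kmt2d KO differed from that in macrophages numbered 0 to 6 for tumour cells and 0 to 5 for endothelial cells. Of all genes, 67 to 607 and 25 to 215 were called there. Log2 changes ran from −0.33 to 0.68 for H2-DMb1 in tumour cells of Kmt2d KO, −0.47 to 2.13 for H2-Aa and −0.13 to 2.48 for H2-Eb1 in endothelial cells of Kmt2d KO, and −0.20 to 0.064 in macrophages and −0.028 to 0.42 in dendritic cells for H2-DMb1 of Kmt2c KO. In Kmt2d KO, differences in share ran from −0.036 to 0.107 percentage points for H2-DMb1 in tumour cells, −0.0777 to 1.86 for Ciita in endothelial cells and −1.81 to 2.78 for Cd74 in dendritic cells.

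Counts of all genes called moved by over 1.5 times with some settings. They ran from 1171 to 4047 in tumour cells of Kmt2c KO (2602 as reported), 103 to 825 of Kmt2d KO (304) and 0 to 2802 between the knockouts (0), from 139 to 1642 (327), 3 to 573 (59) and 0 to 281 (1) in endothelial cells, from 245 to 963 (507), 19 to 541 (181) and 1 to 147 (5) in macrophages and from 0 to 72 (10), 0 to 12 (1) and 0 to 28 (9) in dendritic cells.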

Other observations

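Mural cells, the pericytes and smooth muscle of vessels, were assigned by the same marker rule and gave 110 cells in the 7 libraries that held at least 10. Their 18 interferon gamma targets summed to 1999, 2106 and 3903 CPM in WT libraries, 7036, 7467 and 8338 CPM in Kmt2c KO and 1220 CPM in Kmt2d KO library 3. The 7 class II genes summed to 40.0, 15.3 and 1511 CPM, to 153, 120 and 73.8 CPM and to 17.9 CPM in the same libraries. The targets were thus higher in each Kmt2c KO library than in each WT library, while the class II genes overlapped and stood highest in WT library 3, where 46 Cd74 UMIs lay in 2 of 12 cells. Held-out endothelial markers reached 827 CPM in WT mural cells. Neither difference was tested.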
